A study of Mus musculus with 6 samples.

Results

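The genes described here are 9 genes of blood coagulation and of fibrinolysis, the breakdown of clots: F3, Tfpi, Thbd, Procr, F13a1, Plat, Plau, Plaur and Serpine2. They were taken by symbol from a deposited table of 41064 genes, and all 9 were found and passed the filter on low counts. RNA had been sequenced from 6 mouse aorta libraries, 3 from mice labelled as lacking JOSD2, a deubiquitinase, and 3 from wild type (WT) mice. All 6 came from mice given Ang II (angiotensin II), a peptide that constricts vessels and is infused to remodel the vessel wall, so what follows compares the labelled genotypes under treatment. The sources used here do not give the kind of deletion, the strain, the age or the dose. The labels do not say which animal a library came from, so the p-values below rest on a spread between samples that may be partly or wholly technical.

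Coagulation starts when tissue factor on cells outside the blood stream meets its plasma ligand, and it ends in thrombin, which cleaves fibrinogen to fibrin. Endothelium restrains it with an inhibitor of the tissue factor complex and with thrombomodulin and the endothelial protein C receptor, which turn thrombin towards activating protein C. Fibrin is dissolved by plasmin, which tissue-type and urokinase-type plasminogen activators release from plasminogen, and serpins of the vessel wall inhibit these proteases. Plasmin and urokinase also act on matrix and on cell migration in remodelling arteries.

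The targeted gene, Josd2, was still detected in the libraries labelled KO, at 21.0 ± 0.947 CPM (each library's counts scaled to a common total with TMM factors) against 30.1 ± 0.837 CPM in WT (SD, n = 3 each), which is 69.8% of the WT level, so these are called libraries labelled KO. With library totals in place of TMM the difference in Josd2 did not pass (log2 fold change -0.11, edgeR adjusted p = 0.231). Total counts were 69788553 to 75886761 in the libraries labelled KO and 63612353 to 74241278 in WT. Mitochondrial genes took 23.8% to 23.9% of counts in the libraries labelled KO and 36.2% in WT, and in edgeR with library totals the median gene stood 0.41 higher on the log2 scale. Differences below are therefore given relative to the TMM scale, and directions that depend on it are named. Smooth muscle markers, which define the aortic media, were abundant in all libraries, with 8 genes summing to 21100 to 21200 CPM in the libraries labelled KO and 21900 to 22000 CPM in WT, while 7 mesothelial markers summed to at most 1.39 CPM in the libraries labelled KO and 2.54 CPM in WT.

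Of the 9 genes, 4 rose (F3, Thbd, Procr and Tfpi), 3 fell (Plau, Plaur and Serpine2), and Plat and F13a1 did not pass an adjusted p of 0.05 in edgeR's quasi-likelihood test. Among all 20132 genes tested, 24.7% passed, 13.2% higher and 11.5% lower in the libraries labelled KO. The initiator F3 and the endothelial anticoagulant receptor gene Thbd passed and were more than 2-fold higher. The urokinase gene Plau passed and was more than 2-fold lower. Of all genes tested, 2.57% both passed and were at least 2-fold higher, and 3.39% both passed and were at least 2-fold lower. The groups did not overlap in 8 of the 9 genes, nor in 41.1% of all genes tested. The median log2 fold change over the 9 genes was -0.01, beside 0 over all genes tested. With library totals in edgeR, all 9 passed, 7 higher and 2 lower, where 50.6% of all genes passed, 46.8% higher and 3.81% lower.

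**Figure D1:**
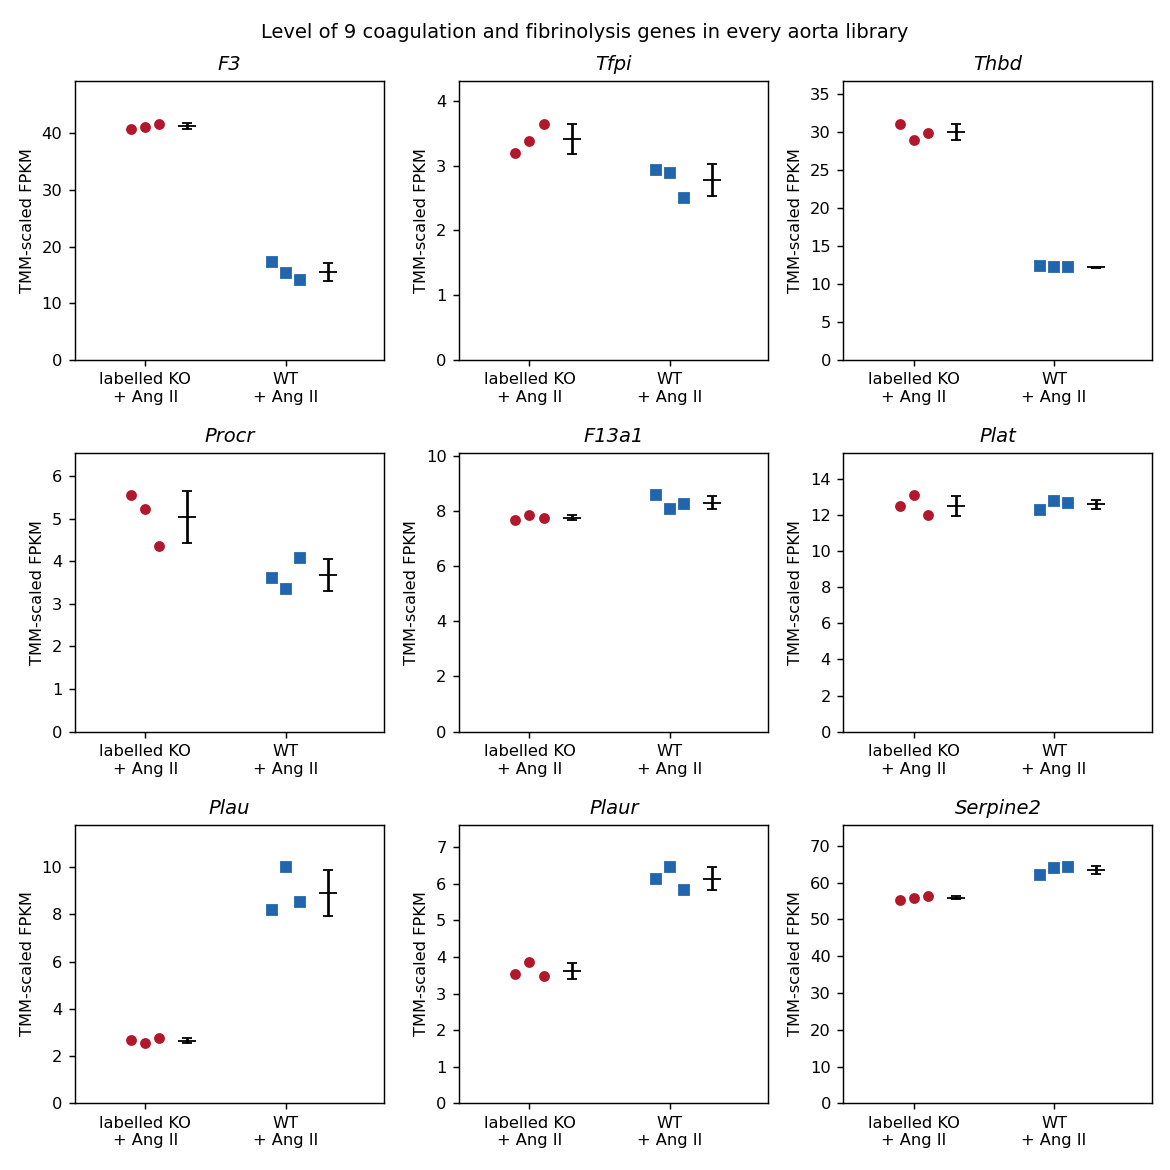
Level of each gene in TMM-scaled FPKM (vertical axis, from 0) in the 3 libraries labelled KO (circles) and the 3 WT libraries (squares), with mean and SD beside them. As ratios of the group means the differences are largest for F3, Thbd and Plau, and the groups overlap for Plat alone.

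Levels per length are given as TMM-scaled FPKM, the deposited FPKM divided by each library's TMM factor, so that genes as well as groups can be compared. In the libraries labelled KO the order from high to low was Serpine2 (55.9), F3 (41.2), Thbd (30.0), Plat (12.5), F13a1 (7.76), Procr (5.05), Plaur (3.62), Tfpi (3.41) and Plau (2.66). Plaur and Tfpi were the only neighbours in that order whose 3 values overlapped. In WT it was Serpine2 (63.4), F3 (15.5), Plat (12.6), Thbd (12.2), Plau (8.92), F13a1 (8.31), Plaur (6.14), Procr (3.68) and Tfpi (2.78), where Plat overlapped Thbd and Plau overlapped F13a1. Plau was thus lowest of the 9 in the libraries labelled KO and the fifth of 9 in WT, and Serpine2 was highest in both. Exons of other genes overlapped none of these genes apart from 1.1% of the F13a1 exon bases, and none had another gene's transcript at 97% identity over 100 bases.

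F3 encodes tissue factor, the membrane receptor that starts coagulation and that fibroblasts of the outer vessel wall and smooth muscle are known to make. It lies on chromosome 3 from 121723537 to 121735048 on the plus strand, in coordinates of the deposited table, which match GRCm38 gene models. Its level was 40.7, 41.1 and 41.7 TMM-scaled FPKM in the libraries labelled KO, against 17.2, 15.3 and 14.0 in WT. The libraries labelled KO were nearly level with each other, and each stood above every WT library. F3 was 2.67-fold higher (log2 fold change 1.41, SE 0.07, edgeR adjusted p = 5.45e-08), and without each library in turn the log2 fold change stayed between 1.35 and 1.50.

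The stretches of DNA just before the starts of F3, Procr and Plaur are shown because these 3 of the 6 genes matched in the RefSeq promoter table (Thbd, Plat and Plau were not matched) held the letters TGANTCA, the consensus of AP-1, the dimer of Fos and Jun proteins. Each is 250 bases from RefSeq on build GRCm38.p6, written 5′ to 3′ on the gene's strand, and ends next to the start that RefSeq gives. For Procr that start lies downstream of the one in the deposited coordinates, so the last part of the window is within the gene as deposited. The windows lie at chr3:121723287-121723536 (F3, plus strand), chr2:155750967-155751216 (Procr, plus strand) and chr7:24462233-24462482 (Plaur, plus strand). Capitals mark matches, on either strand, to TGANTCA, to the GC box GGGCGG bound by Sp and KLF factors, or to the KLF motif CCACACCC, and overlapping matches were counted.
F3: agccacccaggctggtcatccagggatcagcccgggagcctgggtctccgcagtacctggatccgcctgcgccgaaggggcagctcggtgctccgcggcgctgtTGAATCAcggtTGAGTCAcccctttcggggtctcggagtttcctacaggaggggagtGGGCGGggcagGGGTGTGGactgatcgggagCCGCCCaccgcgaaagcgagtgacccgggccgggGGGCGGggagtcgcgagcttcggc
Procr: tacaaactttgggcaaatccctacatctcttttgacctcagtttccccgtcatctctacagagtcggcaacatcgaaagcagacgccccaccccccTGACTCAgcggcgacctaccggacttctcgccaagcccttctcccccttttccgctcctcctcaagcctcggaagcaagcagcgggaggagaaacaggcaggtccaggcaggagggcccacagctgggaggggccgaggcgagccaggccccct
Plaur: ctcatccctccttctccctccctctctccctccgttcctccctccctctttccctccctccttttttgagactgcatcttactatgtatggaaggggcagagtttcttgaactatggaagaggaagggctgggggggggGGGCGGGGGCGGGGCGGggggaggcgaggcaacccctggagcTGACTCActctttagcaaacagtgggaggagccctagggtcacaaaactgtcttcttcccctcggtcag
F3 held 2 matches to TGANTCA, beginning 146 and 135 bases before its RefSeq start. Procr held 1, beginning 154 bases before its RefSeq start, and Plaur 1, beginning 69 bases before. Of all 32851 RefSeq promoter windows of this length, 6.75% held TGANTCA. The GC box, which 32.7% of windows held, occurred before F3 and Plaur and also before Serpine2 and both starts of Tfpi, and CCACACCC, which 3.20% held, occurred before F3. The EGR motif GCGTGGGCG (0.536% of windows) and the SMAD palindrome GTCTAGAC (0.167%) had no match among the 8 windows of the 6 genes. The 3 genes with TGANTCA did not move in the same direction, as F3 and Procr rose and Plaur fell.

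Tfpi encodes tissue factor pathway inhibitor, which blocks the complex that tissue factor forms, and lies on chromosome 2 from 84432855 to 84476763 on the minus strand. Its level was 3.20, 3.38 and 3.65 TMM-scaled FPKM in the libraries labelled KO, against 2.94, 2.89 and 2.50 in WT. The groups did not overlap, but the lowest library labelled KO stood close to the highest WT library. Tfpi was 1.23-fold higher (log2 fold change 0.30, SE 0.09, edgeR adjusted p = 0.0377). That call was lost without library 2 or 3 of either group (edgeR adjusted p of 0.0514 to 0.153), with log2 fold changes of 0.23 to 0.33.

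Thbd encodes thrombomodulin, the endothelial receptor on which thrombin activates protein C, and is an intronless gene on chromosome 2 from 148404466 to 148408188 on the minus strand. Its level was 31.1, 29.0 and 29.9 TMM-scaled FPKM in the libraries labelled KO, against 12.3, 12.2 and 12.2 in WT. The 3 WT libraries were almost equal and all lay far below the lowest library labelled KO. Thbd was 2.45-fold higher (log2 fold change 1.29, SE 0.04, edgeR adjusted p = 2.05e-09), and 83 of the 20132 genes tested had a smaller p.

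Procr encodes the endothelial protein C receptor, which presents protein C to the thrombin bound on thrombomodulin, and lies on chromosome 2 from 155751117 to 155755471 on the plus strand. Its level was 5.55, 5.22 and 4.37 TMM-scaled FPKM in the libraries labelled KO, against 3.62, 3.34 and 4.08 in WT. Library 3 of the labelled KO group and library 3 of WT came close to each other without overlapping. Procr was 1.37-fold higher (log2 fold change 0.46, SE 0.13, edgeR adjusted p = 0.0272), and in WT it had the fewest counts of the 9 genes, down to 457 in a library. The call was lost without library 1 or 2 of either group (edgeR adjusted p of 0.067 to 0.115), with log2 fold changes of 0.38 to 0.45.

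Markers of blood endothelium moved with Thbd, Procr and Tfpi. Of 10 such genes 9 rose and Esam did not pass, and their summed level was 856 to 862 CPM in the libraries labelled KO against 538 to 546 CPM in WT. Fewer or more cells of a type and less or more RNA per cell cannot be told apart in bulk tissue. Per 1000 counts of these 10 markers, Thbd had 160, 148 and 152 counts in the libraries labelled KO against 101, 99.7 and 98.0 in WT. Thbd was thus 1.54-fold higher, and F3 1.68-fold higher, relative to this sum, without overlap between groups, which gave the smallest p that 3 against 3 libraries allow in a two-sided exact permutation test (p = 0.1). The sum gives most weight to abundant markers, which rose by less, such as Pecam1 (log2 fold change 0.39) and Eng (0.57). Kdr rose by 1.86, Tie1 and Emcn by 1.15 each and Cdh5 by 0.95, beside 1.29 for Thbd, so a ratio to Kdr alone would be lower in the libraries labelled KO. Per 1000 counts of all 10 markers, Tfpi had 24.2, 25.4 and 27.4 counts in the libraries labelled KO against 35.4, 34.7 and 29.6 in WT, lower in every one of them. Procr had 15.6, 14.6 and 12.2 counts in the libraries labelled KO against 16.1, 14.9 and 17.9 in WT, and the groups overlapped (two-sided exact permutation p = 0.2). Of 8 smooth muscle markers 5 rose and 2 fell, and of 8 fibroblast markers 3 rose and 4 fell. Per summed counts of these 2 lists F3 was 2.78-fold and 2.73-fold higher, also without overlap between groups. For 36 such values, of 9 genes over 4 marker lists (macrophage markers follow below), the smallest adjusted p of the exact permutation test was 0.112.

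The summed markers of lymphatic endothelium and of adipocytes were higher as well. Of 6 lymphatic markers Prox1, Mmrn1 and Flt4 rose by 3.17, 2.40 and 1.99 on the log2 scale and Pdpn fell, and the 6 summed to 75.8 to 76.4 CPM in the libraries labelled KO against 34.3 to 39.6 CPM in WT. Of 7 adipocyte markers 4 rose and none fell, with a summed level of 229 to 236 CPM in the libraries labelled KO against 139 to 141 CPM in WT. The part of these cell types in the levels of F3, Thbd, Procr and Tfpi was not tested.

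**Figure D2:**
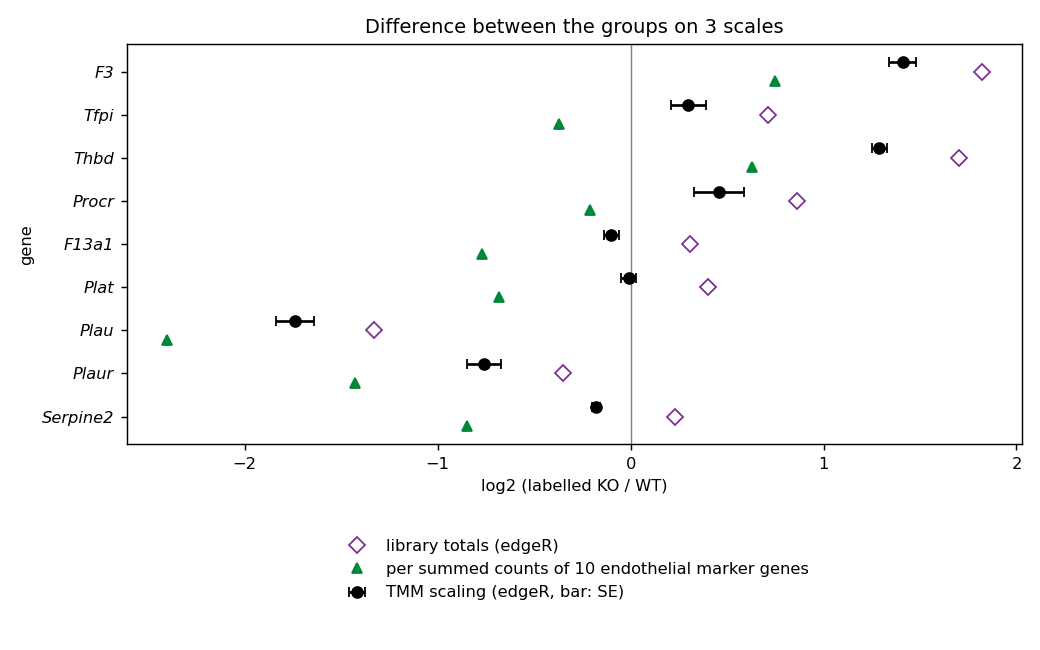
Log2 of labelled KO over WT (horizontal axis) for each gene (vertical axis) with TMM scaling (filled circles, bars are SE), with library totals (open diamonds) and per summed counts of 10 endothelial marker genes (triangles, means of 3 libraries per group). F3 and Thbd lie above 0 and Plau and Plaur below 0 on all 3 scales, while the other 5 genes change side.

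F13a1 encodes the A subunit of factor XIII, the transglutaminase that crosslinks fibrin, and is known as a transcript of resident macrophages and megakaryocytes. It lies on chromosome 13 from 36867178 to 37050244 on the minus strand. Its level was 7.67, 7.85 and 7.75 TMM-scaled FPKM in the libraries labelled KO, against 8.57, 8.09 and 8.27 in WT. All 3 libraries labelled KO stood below WT by a small margin. The difference did not pass (log2 fold change -0.10, SE 0.04, edgeR adjusted p = 0.142), it passed downward in DESeq2 (adjusted p = 0.0427) and among genes with a mean FPKM of at least 1 (edgeR adjusted p = 0.0496), and it was 0.31 upward with library totals (edgeR adjusted p = 0.000166).

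The sums of macrophage and of platelet markers were lower beside it. Of 10 macrophage markers 7 fell and 1, the scavenger receptor gene Cd163, rose, with a summed level of 297 to 307 CPM in the libraries labelled KO against 446 to 448 CPM in WT. With library totals 4 of these markers fell and 2 rose. Of 7 platelet and megakaryocyte markers tested 4 fell (1 with library totals), with a summed level of 11.8 to 14.1 CPM in the libraries labelled KO against 20.5 to 24.6 CPM in WT for the 9 listed, of which none was at 0 in all libraries. Only Pf4 (8.98 in the libraries labelled KO, 15.3 in WT) and, in WT, Ppbp (1.72) averaged above 1 TMM-scaled FPKM. Gp1bb stood higher without passing (log2 fold change 1.06, edgeR adjusted p = 0.365). Per 1000 counts of the macrophage markers, F13a1 had 199, 210 and 201 counts in the libraries labelled KO against 153, 144 and 147 in WT. It was thus higher in each of them relative to that sum. Single markers moved unlike each other, beside a log2 fold change of -0.10 for F13a1. Cd68, C1qb and C1qa stood at -1.34, -1.15 and -0.89, and Adgre1, Csf1r and Mertk at -0.73, -0.46 and -0.41. Mrc1, Lyve1 and Folr2 stood at -0.20, -0.26 and -0.31, and Cd163 at 0.66. A ratio to Cd163 alone would be lower in the libraries labelled KO. The part of these cell types in the level of F13a1 was not tested.

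Plat encodes tissue-type plasminogen activator, which endothelium releases into blood, and lies on chromosome 8 from 22757727 to 22782844 on the plus strand. Its level was 12.5, 13.1 and 12 TMM-scaled FPKM in the libraries labelled KO, against 12.3, 12.8 and 12.7 in WT. The groups overlapped, and both the highest and the lowest of the 6 values came from libraries labelled KO. The log2 fold change was -0.01 (SE 0.04, edgeR adjusted p = 0.927), with a 95% interval of -0.10 to 0.09. With library totals Plat passed upward at 0.40 (edgeR adjusted p = 2.07e-05).

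Plau encodes urokinase, the plasminogen activator of migrating cells, smooth muscle and macrophages, and lies on chromosome 14 from 20836660 to 20843385 on the plus strand. Its level was 2.67, 2.56 and 2.76 TMM-scaled FPKM in the libraries labelled KO, against 8.19, 10.0 and 8.54 in WT. The lowest WT library stood well above every library labelled KO. Plau was 3.34-fold lower (log2 fold change -1.74, SE 0.10, edgeR adjusted p = 4.2e-07). This was the largest difference in either direction among the 9 genes on the TMM scale. Its log2 fold change was -1.79 to -1.64 without each library in turn and -1.77 to -1.10 under the other settings tried.

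Plaur encodes the urokinase receptor, which holds urokinase at the cell surface, and lies on chromosome 7 from 24462484 to 24475968 on the plus strand. Its level was 3.53, 3.86 and 3.48 TMM-scaled FPKM in the libraries labelled KO, against 6.14, 6.45 and 5.84 in WT. The groups did not overlap. Plaur was 1.69-fold lower (log2 fold change -0.76, SE 0.09, edgeR adjusted p = 0.000135). Relative to the macrophage markers that fell beside it, Plau had 24.3, 24.1 and 25.3 counts per 1000 marker counts in the libraries labelled KO against 51.3, 62.7 and 53.2 in WT. Plaur had 35.6, 40.3 and 35.2 counts in the libraries labelled KO against 42.7, 44.7 and 40.3 in WT, where the highest library labelled KO and the lowest WT library were both at 40.3 after rounding. On that scale Plau was thus at 0.442 and Plaur at 0.869 of the WT level. In log2 fold change Plaur (-0.76) lay between the single markers C1qa (-0.89) and Adgre1 (-0.73), so its ratio to single markers would go either way. Plau (-1.74) fell by more than any of the macrophage markers, of which Cd68 fell most (-1.34). Of 7 monocyte and neutrophil markers 2 fell, none rose and 5 did not pass. Of those that fell, Ccr2 (-1.71) fell by nearly as much as Plau and Plac8 (-0.97) by less. The part of these cell types in the levels of Plau and Plaur was not tested.

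Serpine2 encodes protease nexin-1, a serpin that inhibits thrombin, urokinase and plasmin and that smooth muscle cells make, and lies on chromosome 1 from 79794197 to 79858696 on the minus strand. Its level was 55.4, 55.9 and 56.4 TMM-scaled FPKM in the libraries labelled KO, against 62.2, 63.9 and 64.2 in WT. Every library labelled KO was lower, and within each group the values differed by little. Serpine2 was 1.13-fold lower (log2 fold change -0.18, SE 0.02, edgeR adjusted p = 3.79e-05), a direction that belongs to the TMM scale. With library totals in edgeR it passed upward at 0.23 (adjusted p = 2.63e-06), and on the deposited FPKM scale it was at 63.8, 64.3 and 65.1 in the libraries labelled KO against 53.9, 55.3 and 55.7 in WT.

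Ratios of 2 of these genes within a library do not depend on the scaling of libraries. They were computed in FPKM for 5 pairs, and with 3 libraries against 3 the two-sided exact permutation test cannot go below p = 0.1. The ratio of F3 to its inhibitor's gene Tfpi was 12.7, 12.2 and 11.4 in the libraries labelled KO, against 5.83, 5.27 and 5.58 in WT. It was 2.17-fold higher without overlap (exact permutation p = 0.1). The ratio of F3 to Thbd was 1.31, 1.42 and 1.40 in the libraries labelled KO, against 1.39, 1.25 and 1.15 in WT, where the groups overlapped (exact permutation p = 0.2).

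The ratio of Thbd to Procr was 5.60, 5.56 and 6.84 in the libraries labelled KO, against 3.40, 3.66 and 2.99 in WT, 1.79-fold higher. Transcripts of the receptors that serve protein C activation thus differed in their proportion, with no overlap between groups (exact permutation p = 0.1). The ratio of Plau to Plaur was 0.757, 0.663 and 0.795 in the libraries labelled KO, against 1.33, 1.55 and 1.46 in WT. Urokinase transcripts were above those of its receptor per length in all 3 WT libraries and below them in all 3 libraries labelled KO (exact permutation p = 0.1). The ratio of Plat to Serpine2 was 0.225, 0.235 and 0.212 in the libraries labelled KO, against 0.198, 0.200 and 0.198 in WT, 1.13-fold higher (exact permutation p = 0.1). Adjusted over the 5 pairs by the Benjamini-Hochberg method, the p was 0.125 for the 4 pairs without overlap and 0.2 for F3 to Thbd.

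**Figure D3:**
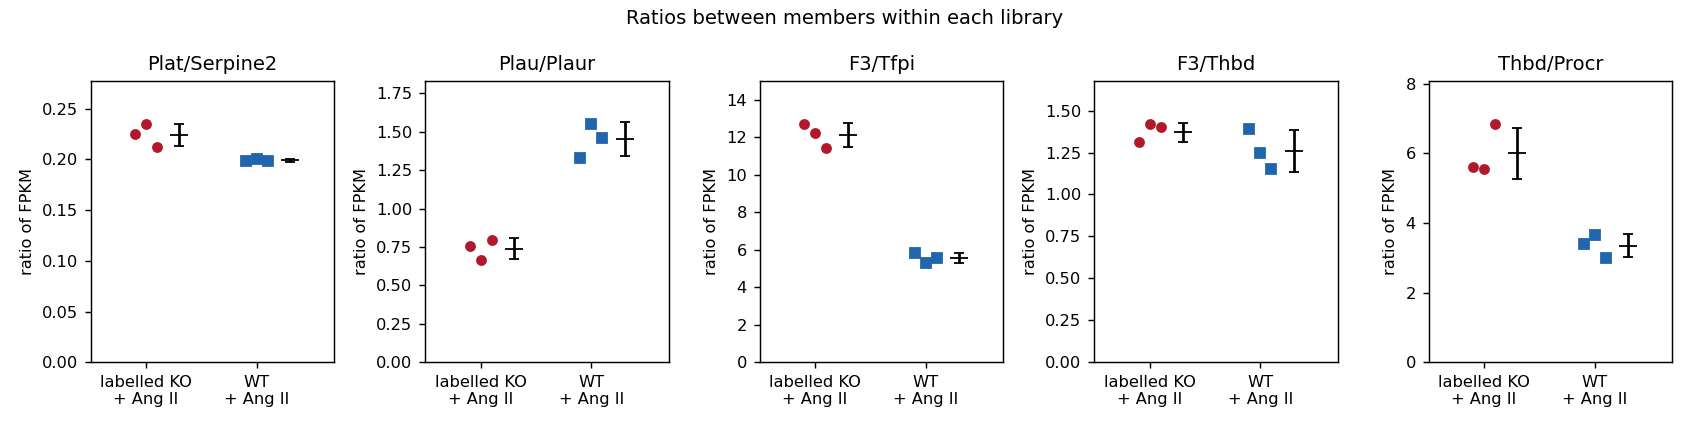
Ratio of FPKM of 2 genes within each library (vertical axes, from 0) in the libraries labelled KO (circles) and WT (squares), with mean and SD. The groups do not overlap for 4 of the 5 ratios and overlap for F3/Thbd.

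A further 61 genes of coagulation, fibrinolysis and their receptors were read from the same fit, in 5 lists. Of these 52 were tested, 10 rose, 13 fell and 29 did not pass in edgeR, with a median log2 fold change of -0.01 beside 0 over all genes tested. Over all genes tested 13.2% rose and 11.5% fell, and the counts of each list below stand beside these shares. Among 13 tested procoagulant genes 5 rose and 1 fell. Vwf, the von Willebrand factor gene of endothelium and platelets, averaged 12.2 ± 0.324 TMM-scaled FPKM in the libraries labelled KO and 5.70 ± 0.160 in WT (SD, n = 3 each, log2 fold change 1.10, edgeR adjusted p = 1.74e-09). Fgl2, which encodes a fibrinogen-like protein with prothrombinase activity, averaged 53.1 ± 1.24 in the libraries labelled KO and 43.2 ± 1.03 in WT. The fibrinogen chain genes Fga and Fgg were near 1 TMM-scaled FPKM in the libraries labelled KO and rose by 0.71 and 0.90 on the log2 scale, while the third chain gene, Fgb, did not pass (0.52, edgeR adjusted p = 0.0822), beside 6 hepatocyte markers that summed to 51.3 to 58.6 CPM in the libraries labelled KO and 30.1 to 34.5 CPM in WT. The part of hepatocyte transcripts in these levels was not tested. Kng1, a kininogen gene named here after its values were seen, also rose (1.39), and up to 30.4% of a transcript of it matches Kng2. Tgm2, the tissue transglutaminase gene, fell by 0.32 with TMM and was 0.09 higher with library totals, and 21.8% of its exon bases are overlapped by genes on the other strand, so its counts are uncertain.

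The list of other anticoagulant proteins counted 2 higher and 1 lower of 10 tested, and the 2 higher, Gas6 and Serpina5, do not do simply what its name says. Gas6, a vitamin K-dependent relative of protein S that signals through TAM receptors, averaged 169 ± 1.06 TMM-scaled FPKM in the libraries labelled KO and 107 ± 2.61 in WT (log2 fold change 0.67, edgeR adjusted p = 4.17e-09). Serpina5, the gene of the protein C inhibitor, which blocks activated protein C, named here after its values were seen, had 52, 50 and 19 counts in the libraries labelled KO and 0 counts in each WT library. Anxa5, whose protein covers procoagulant phospholipid, fell by 0.43 (edgeR adjusted p = 1.7e-06), and with library totals it did not pass (-0.02, edgeR adjusted p = 0.572). Pros1, the gene of protein S, cofactor of activated protein C, did not pass (18.1 ± 0.334 TMM-scaled FPKM in the libraries labelled KO and 17.3 ± 0.734 in WT, edgeR adjusted p = 0.317).

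The list named for fibrinolysis and its inhibitors, which leaves out the 9, counted 6 lower and none higher of 13 tested in edgeR. Of all genes tested 11.5% were lower and 13.2% higher. With library totals the list counted 2 lower and 4 higher, where 3.81% of all genes were lower and 46.8% higher. Anxa2 and S100a10 encode the heterotetramer that gathers plasminogen and its activator on cells. Anxa2 averaged 75.5 ± 1.59 TMM-scaled FPKM in the libraries labelled KO and 108 ± 3.10 in WT (log2 fold change -0.52, edgeR adjusted p = 1.1e-07). S100a10 averaged 47.4 ± 1.50 in the libraries labelled KO and 72.1 ± 4.57 in WT (-0.60, edgeR adjusted p = 8.22e-06). These were the 2 that stayed lower with library totals (-0.11 and -0.19). Eno1, an enolase that also binds plasminogen at the cell surface, fell by 0.39 and was 0.02 higher with library totals, and up to 85.6% of a transcript of it matches Eno1b or pseudogenes. Serpinb6a, an intracellular serpin gene with 29.3% of exon bases overlapped by other genes, fell by 0.31 with TMM and passed upward at 0.10 with library totals (edgeR adjusted p = 0.0325). Up to 78.6% of a Serpinb6a transcript matches other genes. Pdpn, counted in this list though it encodes the platelet-activating podoplanin, fell by 0.57, and with library totals it did not pass (-0.16, edgeR adjusted p = 0.414).

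Protease receptors and clearance receptors counted 3 higher and 2 lower of 10 tested. Vldlr, a clearance receptor for protease and serpin complexes, averaged 5.29 ± 0.334 TMM-scaled FPKM in the libraries labelled KO and 3.53 ± 0.292 in WT (log2 fold change 0.58, edgeR adjusted p = 0.000113). Lrp1, which takes up urokinase and its inhibitor complexes, rose by 0.09 (SE 0.02), and Stab1, a scavenger receptor gene, rose by 0.67. Exons of Nt5dc2 overlap 1.09% of the Stab1 exon bases, and up to 44.6% of a Stab1 transcript matches that gene. The low-level Lrp8, named here after its values were seen, fell by 0.68, and with library totals it did not pass (-0.27, edgeR adjusted p = 0.146). The thrombin receptor gene F2r did not pass (21.8 ± 0.300 TMM-scaled FPKM in the libraries labelled KO and 23.2 ± 1.05 in WT, edgeR adjusted p = 0.147). Of 6 tested genes of the vitamin K cycle and of factor secretion, Vkorc1, Mcfd2 and Furin fell by 0.22, 0.15 and 0.22, and none rose. Exons of Gm21974 overlap 47.7% of the Vkorc1 exon bases and up to 92.2% of a transcript of Vkorc1 matches that gene, while up to 26% of a Furin transcript matches other genes, so the counts of both are uncertain. With library totals none of the 6 was lower and 5 were higher, where 3.81% of all genes were lower and 46.8% higher.

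**Figure D4:**
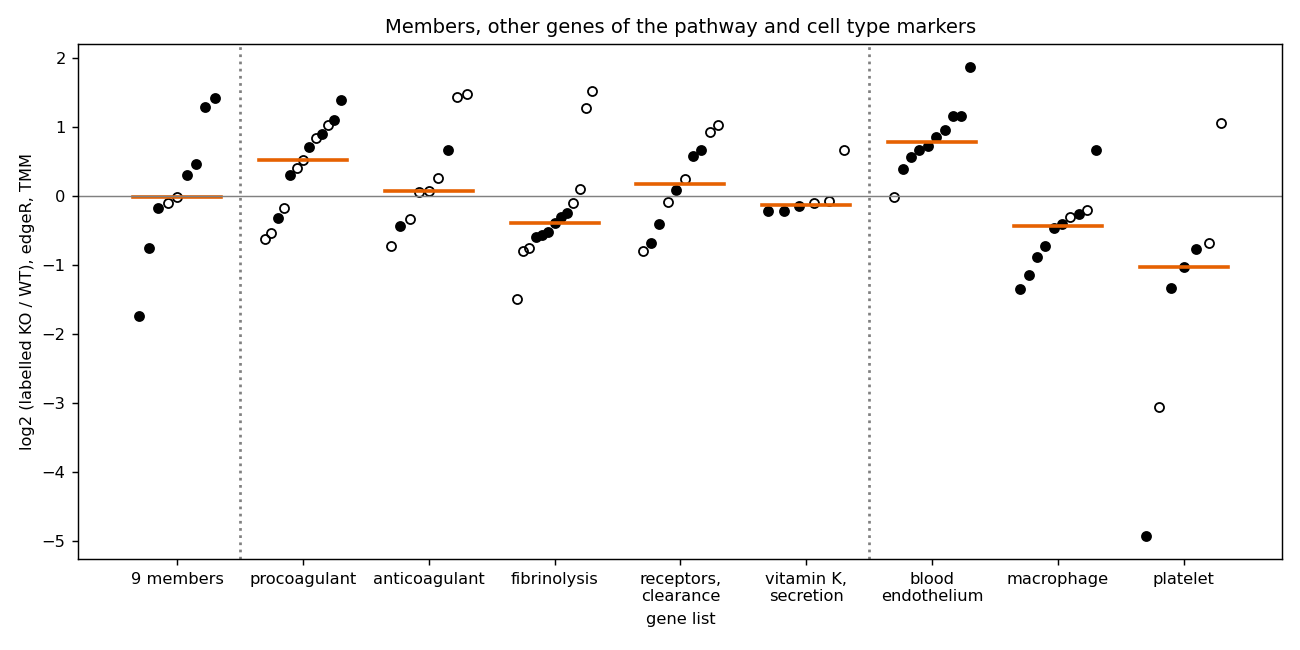
Log2 of labelled KO over WT in edgeR (vertical axis) for the 9 genes, 5 lists of other genes of the pathway and 3 lists of cell type markers (horizontal axis), for genes tested and above 0 in both groups. Filled points passed an adjusted p of 0.05, open points did not, and bars are medians of the points shown, 0.78 for blood endothelium, -0.43 for macrophages and -0.39 for fibrinolysis.

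Across the 6 libraries, the genes most like Thbd in log2 CPM among 4544 with a mean FPKM of at least 5 were Myl12b and Pgm5, both at Pearson r = 0.9998. Slc1a5 and Dtx3 were most like F3 (r = 0.9994 and 0.9993), and Ano1 and C1qa most like Plau (0.9995 and 0.9990). For Thbd 213 genes had an r above 0.99, for Plau 165 and for F3 144. Genes whose gap between the groups is wide beside their spread within them, in the same direction, can reach such values. Prdx5 and Laptm5 were most like Plaur (0.9977 and 0.9972), and C1qc and Eno1 most like Serpine2 (0.9989 and 0.9988). For Tfpi, Arfip2 and Gnl2 came first (0.9961 and 0.9915), for Procr, Nab1 and Usp7 (0.9958 and 0.9894), for F13a1, Vdac2 and Nkiras2 (both 0.9921) and for Plat, Gstp2 and Arl2bp (0.9890 and 0.9706). All these values are descriptions over 6 libraries that fall into 2 groups.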

How the data were processed

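RNA of 6 aorta libraries was measured by paired-end sequencing of polyadenylated RNA, per the labels' protocols. Bowtie 0.12.2, HISAT2 2.0 and build mm8 appear, without a role, in the submitters' processing notes; the sources used here do not give the counting tool, annotation or strand use. Deposited coordinates equalled those of GENCODE M21 (GRCm38) for 86.0% of genes. The authors deposited FPKM and whole-number counts, and the counts were treated as estimated counts because low values peak at multiples of 4; rounding changed none.

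Counts were tested with edgeR 4.0.16 in R 4.3.3 (filterByExpr, TMM, quasi-likelihood test) with Benjamini-Hochberg adjustment over 20132 genes, as planned where counts exist. Each of the 9 genes had at least 457 counts in every library. Allowing for depth, counts differed between libraries of a group by 8.85 to 10.6 times their sampling variance (2.21 to 2.64 times after division by 4). No pair was therefore counted as 1 sample, but these values do not show that the libraries came from separate animals. The 9 genes and all lists were chosen with earlier results of these data known. Other genes are named if they passed, averaged at least 1 FPKM in whichever group was higher and were among 6 with the smallest p of their list; 2 such genes are not reported here. Likeness is Pearson r of log2(CPM + 1). Overlap and identity came from GENCODE M21 and BLAST+ 2.17.0. The edgeR steps were tested on simulated data. Alternatives were limma 3.58.1 on FPKM, DESeq2 1.42.0, other scalings and filters, counts divided by 4, a robust fit, a replicate block and each library left out.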

Additional observations from a re-analysis of the deposited data

How the results depend on the processing

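F3, Thbd, Plau and Plaur kept their direction and their call in all 18 alternatives. Against 4981 genes called with TMM, of which 53.4% were higher, 10193 were called with library totals (92.5% higher), 10314 with limma on log2(FPKM + 1) (91.6% higher) and 10196 with limma on log2(FPKM + 0.1) (91.5% higher). Library totals without mitochondrial genes called 6307, of which 78.1% were higher, and 5082 (58.7% higher) when their nuclear copies were left out too, an alternative chosen after seeing the data. Serpine2 turned to 0.23, 0.22 and 0.23 with library totals and limma at pseudocounts of 1 and 0.1. It did not pass on totals without mitochondrial genes (-0.03, edgeR adjusted p = 0.346). F13a1 turned to 0.31, 0.28 and 0.31 under the first 3 settings and to 0.06 on totals without mitochondrial genes. Plat, near 0 with TMM, turned to 0.40, 0.37 and 0.40, to 0.15 without mitochondrial genes, to 0.02 without their copies as well, and to 0.02 with no filter. With library totals the procoagulant list counted 9 higher and 0 lower, the anticoagulant list 4 and 0, fibrinolysis 4 and 2, receptors 4 and 0, and the vitamin K list 5 and 0. Of all genes tested 46.8% were higher and 3.81% lower on that scale. Without each library in turn 3756 to 4458 genes and 5 to 6 of the 9 were called, and Plat lay between -0.04 and 0.03. The 5 ratios kept their direction without each library, from -1.03 to -0.90 for Plau/Plaur, 1.08 to 1.16 for F3/Tfpi, 0.06 to 0.20 for F3/Thbd, 0.74 to 0.90 for Thbd/Procr and 0.14 to 0.21 for Plat/Serpine2 (log2). Same-numbered libraries did not deviate together (correlations of 0.0335, -0.0230 and -0.00962, and 2 of 6 libraries correlated best with their own number). The labels do not say whether the numbers pair libraries, and these values cannot decide it. With the replicate number as a block edgeR called 4560 genes and 5 of the 9, without Tfpi (adjusted p = 0.0683) and Procr (adjusted p = 0.0516). Ratios from lengths were not run, as the table gives none. The cause of these changes was not tested beyond the scaling itself. Of the 7 calls, Tfpi and Procr lay nearest the threshold, with an SE of 0.09 and 0.13 on the log2 scale.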

Other observations

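Vkorc1l1, a paralog of the vitamin K epoxide reductase gene, differed within WT. It stood at 4.45, 3.68 and 3.87 TMM-scaled FPKM in the libraries labelled KO, against 3.51, 0.247 and 3.78 in WT (edgeR adjusted p = 0.474). WT library 2 thus stood far below the other 5, and up to 60.1% of a transcript of this gene matches Gm5417.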
